A study of Homo sapiens with 4 samples.

Results

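SR proteins and hnRNPs are the main families of RNA-binding proteins that decide which exons of a transcript are joined. SR proteins carry RNA recognition motifs and a tail rich in arginine and serine dipeptides. They bind exonic enhancers and help the spliceosome to recognise splice sites. The hnRNPs coat nascent transcripts, and many of them hold exons out of the message, so the ratio of both families is known to shift splice choice. Many of these genes also carry exons whose inclusion marks their own transcript for nonsense-mediated decay, and gene-level counts do not separate such transcripts from coding ones. The members were the rows whose gene symbol is SRSF or HNRNP followed by digits or letters, together with TRA2A and TRA2B, the SR-like Tra2 proteins. The rule found 38 of the 23394 genes, 14 of the SR class (12 SRSF genes and both TRA2 genes) and 24 of the hnRNP class, and it used no measured value.

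The study sequenced RNA of the breast cancer line SUM159, grown in F12 medium with serum, insulin and hydrocortisone. The 2 control libraries came from cells given DMSO and the 2 knockdown libraries from cells given doxycycline, which switches on an siRNA directed at SHARP (gene symbol SPEN), a corepressor that binds RNA and the Notch effector RBPJ. Doxycycline was given to the knockdown cells alone, so the drug and the knockdown cannot be told apart, and the replicates are not described as separate cultures, so the p-values speak only of how far these libraries vary, and that variation may be technical. SPEN stood at 187 and 184 CPM (counts scaled by library size and by TMM factors) in the controls and at 107 and 108 CPM in the knockdown. The libraries held 15641296 to 17197715 counts, of which the members took 0.976% to 1.02%. Vimentin (VIM) was at 3255 to 3259 CPM in the controls and 4981 to 5059 CPM in the knockdown, and the epithelial cadherin CDH1 at 0 in every library. The luminal keratins were present, KRT18 at 183 CPM in control replicate 1 and not called, and KRT8 at 115 and 126 CPM in the controls and called higher (log2 fold change 0.29, edgeR's quasi-likelihood test). The luminal marker GATA3 was called lower in that test, from 12.2 and 12.8 CPM in the controls to 8.29 and 8.24 CPM in the knockdown. EPCAM, ESR1 and PGR had at most 5 counts in any library. Of 10 leukocyte markers, 4 had enough counts to be tested and 2 of these were called higher (50%, against 50.1% of all tested genes). They were CD68 and ITGAM, the latter at 0 counts in both controls and 10 and 19 in the knockdown. The sum of the list ran from 36.4 to 40.4 CPM in the controls and from 46.9 to 47.8 CPM in the knockdown. Most of it was CD68, at 29.1 and 33.7 CPM and then 40.7 and 37.4 CPM. CD14 went the other way, from 14 and 11 counts to 3 and 7, and was not called. PTPRC, found on all leukocytes, had 4 to 9 counts in each library, and CD3D and MS4A1 were at 0 in all libraries. The part of these markers in the results was not tested.

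One member cannot be read without comparing its sequence with that of its parent gene. HNRNPA1P10 is a processed pseudogene, a copy of the HNRNPA1 message set back into the genome (GRCh38 annotation GENCODE 29: chromosome 19, 11666069 to 11667030, minus strand). HNRNPA1 itself lies on chromosome 12 (54280193 to 54287088, plus strand) and the coding retrocopy HNRNPA1L2 on chromosome 13 (52642425 to 52643796, plus strand). Over the 960 bases of the HNRNPA1 reading frame, stop codon left out, HNRNPA1P10 differed at 4 bases and by 1 gap, an identity of 99.5%, with one unbroken identical run of 301 bases. HNRNPA1L2 differed at 15 bases, an identity of 98.4%. Of the 50-base windows of the HNRNPA1 reading frame, 72.7% occur unchanged in HNRNPA1P10 and 79.9% in at least 1 other gene of the deposited table. The same search found 96.4% of the windows of HNRNPUL2, which begins a read-through transcript named HNRNPUL2-BSCL2, and 48.6% of those of HNRNPA1L2 (43.1% in HNRNPA1). For HNRNPA3 it found 13.5%, for HNRNPC 3.81%, for HNRNPH1 0.0776% and for HNRNPH2 0.077%. Among the 14 SR members it found a window in SRSF11 alone, for 0.57% of its frame. The sources used here do not say how the authors' counting assigned such reads.

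Of the 38 members, 34 had enough counts to be tested. HNRNPKP3 had 0 counts in every library, HNRNPCL1 rounded to 0 in every library, and the pseudogenes HNRNPA3P1 and HNRNPA1P33 had at most 6. In edgeR's quasi-likelihood test at an adjusted p of 0.05, 10 members rose and 9 fell, which is 55.9% of those tested. Over all 13915 tested genes, 50.1% were called, 25.1% higher and 24.9% lower. The members' share thus lay near that of all genes. Among genes with a mean of at least 20 CPM, 57.6% of 33 members were called, against 63.8% of 7906 genes. The control and knockdown libraries did not overlap for 30 of 34 members, against 74.3% of all tested genes. The changes were small. The median log2 fold change of the members was 0.00054 and that of all genes 0.0012, with 17 members on each side of 0. No member changed 2-fold, against 4.36% of all genes, and 3 members (8.82%) differed by at least 1.2-fold, against 42.5%. Among genes with a mean of at least 20 CPM, 1.52% changed at least 2-fold. At that level 9.09% of members and 33.2% of all genes differed by at least 1.2-fold. With scaling by library size alone 9 members rose and 13 fell, where 50.8% of all genes were called. By class, with TMM, 5 SR members rose, 3 fell and 6 were not called, and 5 hnRNP members rose, 6 fell and 9 were not called. Summed over the class, SR members stood at 1717 and 1722.5 CPM in the controls and 1799 and 1792 CPM in the knockdown, a change of 4.42% (1.17% when scaled by library size alone). The hnRNP members summed to 8243.5 and 8358.5 CPM against 8205 and 8117 CPM, a change of -1.68% (-4.74% by library size alone).

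**Figure D1:**
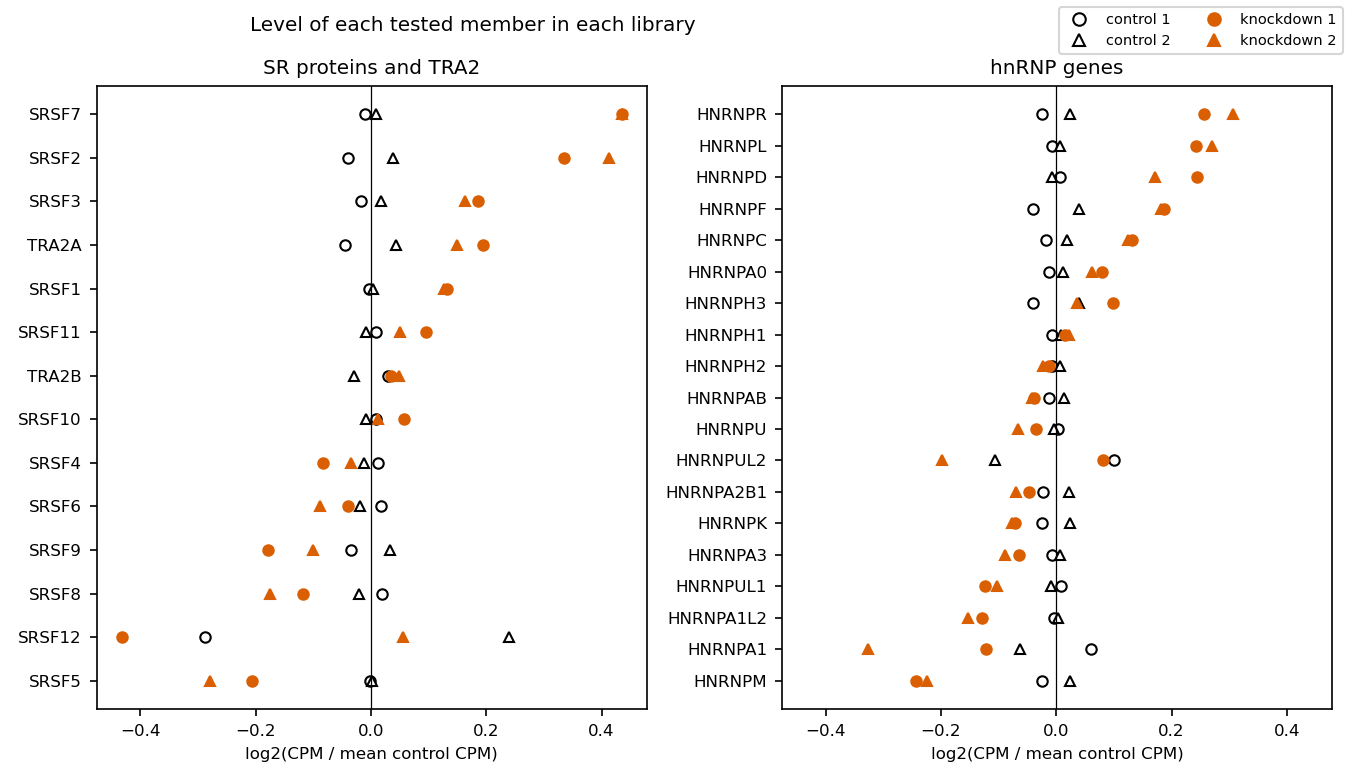
CPM of each tested member in each library as the log2 ratio to the mean of both controls (x axis, log2 units), SR and TRA2 genes on the left and hnRNP genes on the right, with circles for replicate 1 and triangles for replicate 2, open for control and filled for knockdown. The SRSF7 knockdown points lie farthest to the right and those of SRSF5 and HNRNPM far to the left, while SRSF12 spreads within each group (HNRNPA1P10, whose replicates differ many-fold, is left out).

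Among the SR proteins, the largest rise was that of SRSF7, a shuttling SR protein with a zinc knuckle that takes part in splicing and mRNA export. It was at 70.0 and 71.0 CPM in the controls and at 95.3 CPM in each knockdown library, a rise of 35.2% (log2 fold change 0.43, SE 0.048, edgeR adjusted p = 2.81e-06). SRSF2, the nuclear SR protein also called SC35 and used to mark nuclear speckles, was at 104 and 110 CPM in the controls and at 135 and 142 CPM in the knockdown (log2 fold change 0.37, SE 0.044, edgeR adjusted p = 5.23e-06). For both genes the lower knockdown library stood well above the higher control. They were also the only members called by edgeR's test against a fold of 1.2, with adjusted p of 0.00274 and 0.0189, a test that called 18.1% of all genes. No hnRNP member and no lower member was called in it, nor had any of these an unadjusted p under 0.05.

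SRSF3 and SRSF1 rose less. SRSF3, a small SR protein that also acts in mRNA export, was at 140 and 143 CPM in the controls and 161 and 158 CPM in the knockdown, a rise of 12.8% (edgeR adjusted p = 6.83e-04). SRSF1, the founding family member known as SF2/ASF, was at 341 and 343 CPM and then at 375 and 373 CPM, a rise of 9.38% (edgeR adjusted p = 2.21e-04). The replicates of SRSF1 lay within 2 CPM of each other, so this small shift separated the groups cleanly. TRA2A, which binds purine-rich enhancers, was at 32.9 and 34.98 CPM in the controls and 38.8 and 37.6 CPM in the knockdown (log2 fold change 0.17, edgeR adjusted p = 0.0155). Its call was lost without control replicate 1 (adjusted p = 0.149), without knockdown replicate 1 (0.0999), with scaling by library size alone (0.0660) and with DESeq2 (0.230). Its paralog TRA2B did not pass the test, with 133 and 128 CPM against 134 and 135 CPM (log2 fold change 0.042, SE 0.038).

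SRSF5 was the SR gene that fell most. It was at 159 CPM in both controls and at 138 and 131 CPM in the knockdown, a log2 fold change of -0.24 (SE 0.037, edgeR adjusted p = 6.52e-05). SRSF9 and SRSF8 were also called lower, by 9.23% and 9.62% when written as a fall from the control. SRSF9 had 128 and 134 CPM in the controls and 116 and 122 CPM in the knockdown (edgeR adjusted p = 0.0134). SRSF8, a retrocopy related to SRSF2, had 36.5 and 35.5 CPM and then 33.2 and 31.9 CPM (edgeR adjusted p = 0.0361). Both calls were fragile. SRSF8 lost its call when any 1 library was left out, with edgeR adjusted p of 0.0508 to 0.210, and SRSF9 did so without control replicate 1 (0.0527), control replicate 2 (0.128) or knockdown replicate 1 (0.119). The count of SR members that fell, 3, became 1 without control replicate 1, without control replicate 2 and without knockdown replicate 1, where 35.5%, 35.6% and 44.3% of all genes were called.

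The 6 SR members that were not called lay between log2 fold changes of -0.17 and 0.073. They were SRSF4 (-0.059), SRSF6 (-0.064), SRSF10 (0.035), SRSF11 (0.073), SRSF12 (-0.17) and TRA2B. SRSF4, SRSF5 and SRSF6 form a subgroup of SR proteins that carry a pair of RNA recognition motifs. SRSF6 was at 128 and 125 CPM in the controls and 123 and 119 CPM in the knockdown, and SRSF4 at 142 and 140 CPM and then 133 and 138 CPM. SRSF11 had an adjusted p of 0.0217 when knockdown replicate 2 was left out, against 0.0570 with all libraries. SRSF12, a rarely expressed splicing repressor, counted 12 and 18 reads in control and 10 and 14 in knockdown libraries, and a difference would not be detectable at that depth unless it were large (SE 0.40).

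**Figure D2:**
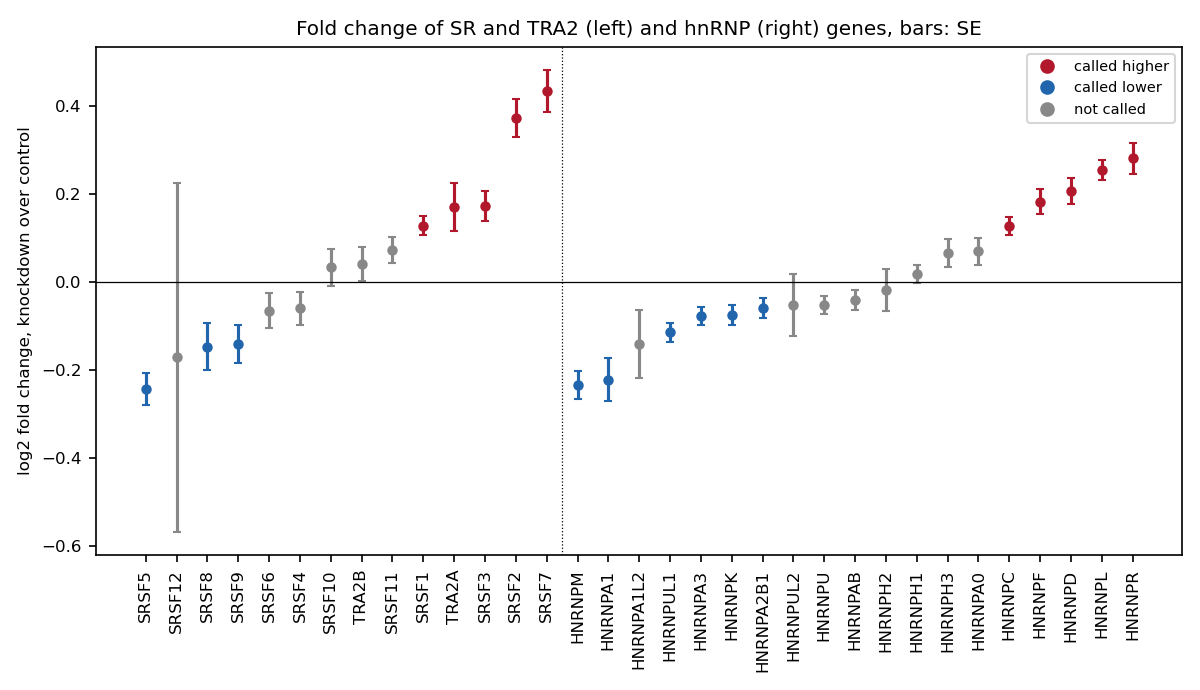
Log2 fold change of knockdown over control (y axis) for the tested members except HNRNPA1P10, SR and TRA2 genes left of the dotted line and hnRNP genes right of it, with bars for the SE and colours for the edgeR call at an adjusted p of 0.05. Each class has genes called on both sides of 0, from SRSF5 at -0.24 to SRSF7 at 0.43 and from HNRNPM at -0.23 to HNRNPR at 0.28.

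Of the hnRNPs, 5 rose. HNRNPR, an RNA-binding protein close to SYNCRIP, was at 139.5 and 144 CPM in the controls and 169.5 and 176 CPM in the knockdown, a rise of 21.6% (log2 fold change 0.28, SE 0.035, edgeR adjusted p = 9.90e-06). HNRNPL, which binds CA repeats and represses or enhances exons by position, was at 359 and 363 CPM and then at 427 and 435 CPM, a rise of 19.4% (SE 0.023 on the log2 scale, edgeR adjusted p = 2.46e-07, the smallest of any member). The groups lay far apart in both genes relative to their replicates. HNRNPD, known as AUF1 for its binding to AU-rich elements of short-lived messages, was at 201 and 199 CPM in the controls and at 237 and 225 CPM in the knockdown (rise of 15.5%, edgeR adjusted p = 4.38e-05). HNRNPF, which binds G-rich tracts, was at 244 and 258 CPM and then at 286 and 285 CPM (rise of 13.6%, edgeR adjusted p = 8.69e-05). HNRNPC, which binds uridine tracts on nascent transcripts, went from 699 and 717 CPM to 775 and 772 CPM (rise of 9.31%, edgeR adjusted p = 1.35e-04). HNRNPF's relatives HNRNPH1 (0.018), HNRNPH2 (-0.017) and HNRNPH3 (0.067) did not pass the test on the log2 scale, though HNRNPH3 had an adjusted p of 0.0119 without knockdown replicate 2.

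Of the 6 hnRNPs that fell, HNRNPM and HNRNPUL1 kept their call under every alternative except the test against a fold of 1.2. HNRNPM, a splicing regulator studied in epithelial to mesenchymal transition, was at 181 and 187 CPM in the controls and 155.5 and 158 CPM in the knockdown (log2 fold change -0.23, SE 0.033, edgeR adjusted p = 2.97e-05). HNRNPUL1, a relative of HNRNPU that also acts at DNA breaks, was at 458 and 453 CPM and then at 418 and 424 CPM (log2 fold change -0.11, SE 0.022, edgeR adjusted p = 4.93e-04). The groups were apart in both genes. Smaller falls were called in A and B type hnRNPs and in HNRNPK. HNRNPA2B1 was called with a log2 fold change of -0.059 (edgeR adjusted p = 0.0392), HNRNPA3 with -0.077 (edgeR adjusted p = 0.00652) and HNRNPK, which binds C-rich sequence, with -0.074 (edgeR adjusted p = 0.0129). Each of these 3 calls was lost without control replicate 2 (adjusted p = 0.266, 0.0718 and 0.137) and without knockdown replicate 2 (0.286, 0.118 and 0.0783). Without control replicate 2 the count of members that fell went from 9 to 4, and of hnRNP members from 6 to 3. The share of all genes called in that fit was 35.6%, against 50.1% with every library.

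HNRNPA1, the most studied hnRNP and a repressor of exon inclusion, was at 1593 and 1464 CPM in the controls and at 1404 and 1219 CPM in the knockdown (log2 fold change -0.22, SE 0.048, edgeR adjusted p = 0.00142). The groups did not overlap, but the second library of each group was well below the first. Its log2 fold change was -0.33 without knockdown replicate 1 and -0.12 without knockdown replicate 2. Its call was lost without control replicate 1 (adjusted p = 0.168), without the low-count filter (0.0713) and with DESeq2 (0.152). The pseudogene row went the other way between replicates. Control libraries gave HNRNPA1P10 79 and 2905 counts and knockdown libraries 111 and 2935, so replicate 1 was low and replicate 2 high in both groups. Its fitted log2 fold change of 0.20 had an SE of 0.90 (edgeR adjusted p = 0.879), and with the replicate block the adjusted p was 1.03e-04. It turned from 1.14 without knockdown replicate 1 to -3.58 without knockdown replicate 2, each called. The row took 0.296% of the reads of the HNRNPA1 and HNRNPA1P10 rows in control replicate 1 and 0.511% in knockdown replicate 1, against 10.2% and 13.5% in the replicates numbered 2.

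Added together, the rows of HNRNPA1 and HNRNPA1P10 came to 26800 and 28439 counts without knockdown and 21801 and 21715 with it, or 1598 and 1631 CPM against 1412 and 1409 CPM. The summed row, an alternative chosen after the data were seen, had a log2 fold change of -0.19 with an SE of 0.021 (edgeR adjusted p = 4.83e-07), a narrower error than that of HNRNPA1 alone. HNRNPA1L2, the coding retrocopy, was at 22.3 and 22.4 CPM in the controls and at 20.5 and 20.1 CPM in the knockdown and did not pass the test (log2 fold change -0.14, SE 0.077). HNRNPUL2 showed the same kind of division. Its control libraries held 4091 and 3686 counts and its knockdown libraries 3719 and 3057, and HNRNPUL2-BSCL2 had 885 and 1664 counts and then 736 and 1531. HNRNPUL2 was not called (log2 fold change -0.051, SE 0.070), was called lower without knockdown replicate 1 (-0.20, edgeR adjusted p = 1.68e-05) and higher without knockdown replicate 2 (0.084, edgeR adjusted p = 0.0443). The sum of both rows had a log2 fold change of -0.042 with an SE of 0.029 and was not called (edgeR adjusted p = 0.241).

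**Figure D3:**
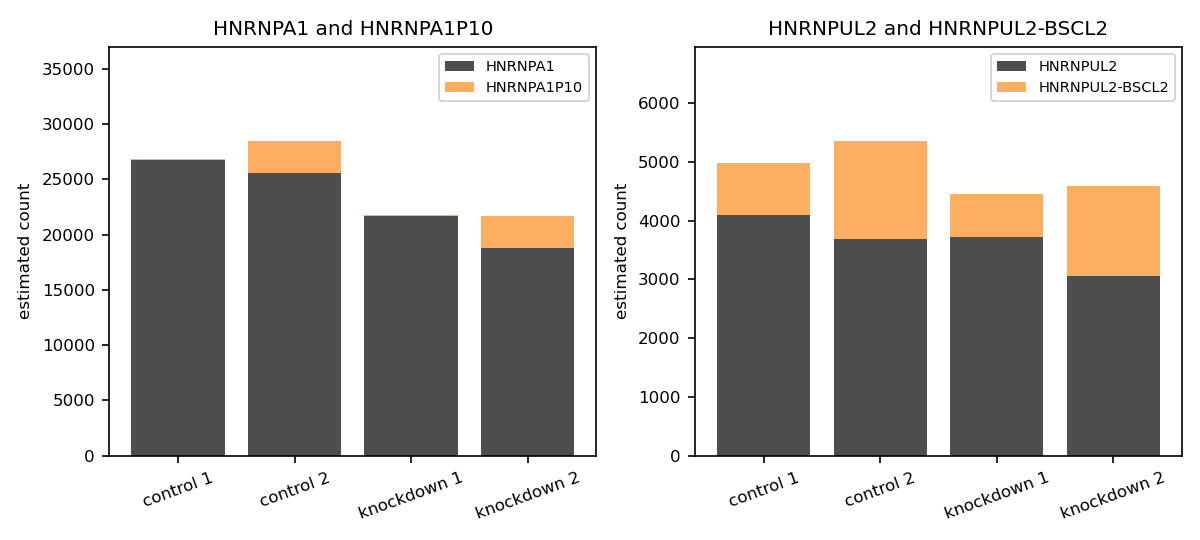
Estimated counts per library (y axis, bars from 0) of HNRNPA1 with HNRNPA1P10 stacked on it (left) and of HNRNPUL2 with the read-through HNRNPUL2-BSCL2 (right). The stacked part is large in the replicates numbered 2 (2905 and 2935 counts for HNRNPA1P10) and small in those numbered 1 (79 and 111), while the height of the HNRNPA1 bars in the knockdown is lower in both replicates.

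The remaining hnRNPs were not called. HNRNPU, a nuclear scaffold protein that binds chromatin-associated RNA, had a log2 fold change of -0.051 (SE 0.021, edgeR adjusted p = 0.0572) and was called lower under 4 alternatives, namely without knockdown replicate 1 (0.0390), with upper-quartile scaling (0.0240), with library size alone (0.00118) and with limma-voom (0.0479). Its antisense partner HNRNPU-AS1 rose from 53.2 and 53.6 CPM to 65.3 and 68.3 CPM (log2 fold change 0.32, edgeR adjusted p = 3.01e-05). The use of strand is not given, so reads of this antisense gene and of HNRNPU cannot be told apart with certainty. HNRNPA0 had a log2 fold change of 0.071 and HNRNPAB of -0.040, with edgeR adjusted p of 0.0629 and 0.177.

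In all, 12 of the 19 called members, 5 SR and 7 hnRNP, kept their call and direction under each of the 15 alternatives other than the test against a fold of 1.2, and 9 of these 12 were higher and 3 lower in the knockdown. The higher ones were SRSF1, SRSF2, SRSF3, SRSF7, HNRNPC, HNRNPD, HNRNPF, HNRNPL and HNRNPR. The lower ones were SRSF5, HNRNPM and HNRNPUL1. How many of all called genes kept their call under the same alternatives was not counted. Neither the 12 members nor their split by direction can thus be set against a background. The 7 members whose call was lost under some alternative were TRA2A, which was higher, and SRSF8, SRSF9, HNRNPA1, HNRNPA2B1, HNRNPA3 and HNRNPK, which were lower.

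SPEN acts with RBPJ, whose binding sites share the core TGGGAA, so the RefSeq promoter windows (GRCh38.p14, from upstream of the start to just past it, the first window listed for a gene) were searched for it on both strands. A window was found for 31 members, not for HNRNPA1, SRSF2, TRA2A and the pseudogenes HNRNPA1P10, HNRNPA1P33, HNRNPA3P1 and HNRNPKP3. TGGGAA occurred in 8 of 31 members (25.8%) and in 24.0% of all 35116 windows. The members had 1 window each, while the windows of the background were not limited to 1 per gene. Its holders included SRSF7, SRSF1 and HNRNPL, which rose, and SRSF8, SRSF9, HNRNPA3 and HNRNPUL1, which fell. The longer GTGGGAA, which contains TGGGAA, was in 2 members, HNRNPUL1 and SRSF9 (6.45%), against 6.25% of all windows. These promoters are printed in the direction of the gene, with that match in capitals (on the opposite strand in SRSF9). They lie at chr19:41262307-41262606, plus strand, for HNRNPUL1 and chr12:120469699-120469998, minus strand, for SRSF9.
HNRNPUL1: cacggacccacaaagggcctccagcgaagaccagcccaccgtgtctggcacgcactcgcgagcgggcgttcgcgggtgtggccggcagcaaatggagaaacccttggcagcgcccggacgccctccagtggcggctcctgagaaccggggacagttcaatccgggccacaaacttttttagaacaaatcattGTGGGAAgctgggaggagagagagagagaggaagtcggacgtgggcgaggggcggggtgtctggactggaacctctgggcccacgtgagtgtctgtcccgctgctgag
SRSF9: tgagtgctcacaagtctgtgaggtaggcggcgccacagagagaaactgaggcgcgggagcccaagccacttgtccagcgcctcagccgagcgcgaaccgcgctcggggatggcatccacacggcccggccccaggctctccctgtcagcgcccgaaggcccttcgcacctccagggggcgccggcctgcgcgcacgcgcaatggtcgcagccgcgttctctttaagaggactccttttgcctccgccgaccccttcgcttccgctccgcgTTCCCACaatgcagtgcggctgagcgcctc
The matches are letters in a sequence and were not tested for binding. By call, TGGGAA was in 3 of 8 members that rose, 4 of 8 that fell and 1 of 14 that were not called, and GTGGGAA in 0 of 8, 2 of 8 and 0 of 14. These are small counts, given without a test.

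SR proteins are phosphorylated in the cytoplasm by SRPK kinases and in the nucleus by CLK kinases, and TNPO3 imports them. Of 13 tested genes of this list, 7 rose and 2 fell (69.2% called, median log2 fold change 0.11). Over all tested genes 50.1% were called, and 63.8% of those with a mean of at least 20 CPM. SRPK2 fell from 62.0 and 63.4 CPM to 39.6 and 39.5 CPM, which left 0.631 times the control level (edgeR adjusted p = 1.35e-08). SRPK1 moved the opposite way, from 219 and 225 CPM to 286 and 270 CPM (log2 fold change 0.32, edgeR adjusted p = 5.03e-07). PRPF4B, a kinase of the spliceosome, rose by 0.35 on the log2 scale and the phosphatase subunit PPP1CC by 0.31. TNPO3, the other gene that fell, had a log2 fold change of -0.25 and was named after its value was seen. HNRNPA1 and other hnRNPs are imported by TNPO1 and methylated on arginine by PRMT1. Of 9 tested genes of that list 5 rose and 2 fell (77.8% called, against 50.1% of all tested genes). Among them TNPO1 (0.14), PRMT1 (0.33) and PRMT5 (0.25) rose, and CARM1 (-0.24) fell.

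Proteins related to the members under other names were also mixed. Of 28 tested SR-related proteins, 6 rose and 8 fell (50% called, against 50.1% of all tested genes, median log2 fold change of the list 0.0077). RNPS1, a subunit of exon junction complexes, rose by 0.27 and SRRM1, a coactivator with many arginine-serine repeats, by 0.28, while ZRANB2 fell by 0.41 and CIR1, which also binds RBPJ, by 0.51. Of 18 tested hnRNP relatives, 6 rose and 3 fell (also 50% called, median 0.046). HNRPDL, the older symbol of an hnRNP D-like gene that the rule on symbols does not reach, went from 297 and 298 CPM to 363 and 345 CPM (log2 fold change 0.25, edgeR adjusted p = 2.23e-06). The poly(C)-binding protein PCBP1 rose by 0.29, TARDBP, which encodes TDP-43, by 0.31 and SYNCRIP, also called hnRNP Q, by 0.13.

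Of 25 tested genes among other regulators of splice site choice, 11 rose and 6 fell (median log2 fold change 0.073). RBFOX2, which binds UGCAUG elements, fell from 383 and 384 CPM to 254 and 266 CPM (log2 fold change -0.56, SE 0.027, edgeR adjusted p = 2.65e-10), while SFPQ (0.37), QKI (0.38) and MBNL1 (0.24) rose. ESRP1, an epithelial splicing regulator named after its value was seen, fell by 1.18 on the log2 scale from 6.98 and 7.45 CPM in the controls. Of 40 tested genes of the core spliceosome, 20 rose and 1 fell, the step-2 factor SLU7 (named after its value was seen), with a median log2 fold change of 0.11. The helicase DHX15 rose by 0.48, the Sm protein genes SNRPB and SNRPE by 0.40 and 0.60 and SF3B3, of the U2 particle, by 0.23. Of 17 tested factors of nonsense-mediated decay and the exon junction complex, 8 rose and 2 fell (median 0.15), and the kinase SMG1 (0.38), SMG9 (0.44), EIF4A3 (0.33) and CASC3 (0.18) were among those that rose. The percentages called were 68.0%, 52.5% and 58.8% for these 3 lists, against 50.1% of all genes, whose median was 0.0012. Among all tested genes with a mean of at least 20 CPM the share was 63.8%, above the 52.5% and 58.8%.

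**Figure D4:**
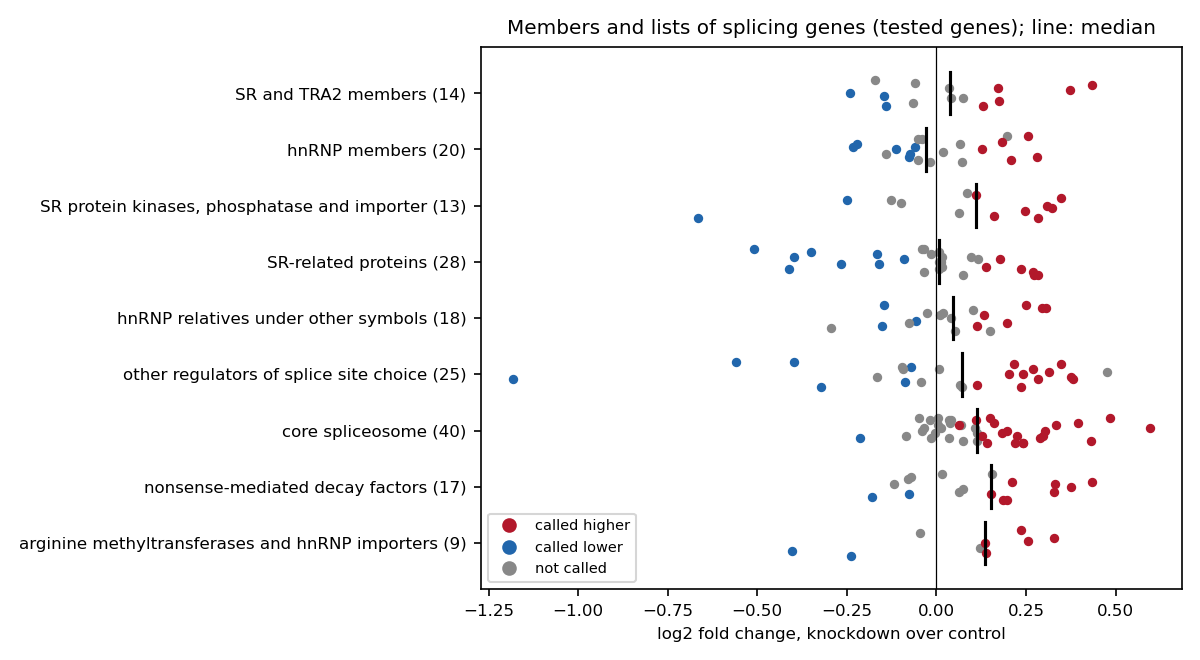
Log2 fold change of knockdown over control (x axis) of each tested gene in the SR and hnRNP classes and in 7 lists of related splicing genes, 1 point a gene, coloured by the edgeR call, with a black line at the median and the number tested in brackets. The member classes stay between -0.24 and 0.43, the core spliceosome has 20 points called higher and 1 lower, and the 4 points below -0.5 are ESRP1 (-1.18), SRPK2 (-0.66), RBFOX2 (-0.56) and CIR1 (-0.51).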

How the data were processed

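RNA of 4 SUM159 libraries was measured, 2 control and 2 knockdown, in libraries for polyadenylated RNA per the labels' protocols. The deposited values are the authors' estimated counts, without normalisation and keyed by symbol, made after alignment with STAR to GRCh37 per the submitters' processing notes. The sources used here do not name the counting program, its handling of ambiguous reads or whether it used strand. Values of 591 of 23394 genes, 467 of them tested, lay over 0.01 from a whole number, and all were rounded. Columns were matched to samples by name, with 0 sample columns unused.

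edgeR 4.0.16 (R 4.3.3; TMM, filterByExpr with a minimum count of 10, glmQLFit, glmQLFTest, two-sided, group as the single term) was fitted to 13915 genes, with Benjamini-Hochberg adjustment over all of them and calls at 0.05. The SE is the log2 fold change divided by the square root of F. The procedure was tested on simulated data with 200 changed genes, far fewer than the 6970 called here. That test does not give the error rates for these data. A floor of 3 counts is 0.172 to 0.195 CPM, for counting error only. The chi-square per degree of freedom was 1.84 between the controls and 1.59 between the knockdown libraries, so none were merged.

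Every tested member is named. Values per library are given for at least the 12 called members with the smallest adjusted p, and each list is represented by up to 4 called genes, those of smallest adjusted p. The members and lists were chosen with earlier results of these data known. Alternatives were RLE, upper-quartile and library-size scaling, other low-count filters, DESeq2 1.42.0, limma-voom (limma 3.58.1), a replicate block, each library left out, a fold of 1.2 and an adjusted p under 0.01. Summing the divided rows and leaving out fractional genes were added after the data were seen. Sequences came from GENCODE 29 (GRCh38) and RefSeq (GRCh38.p14), which are not the build of the counts. Some of the sequences compared and 1 of the listed marker genes are not reported here.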

Additional observations from a re-analysis of the deposited data

How the results depend on the processing

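The number of genes called, 6970, was 4593 with DESeq2 and 2521 against a fold of 1.2. The 9 members that fell were 4 without the low-count filter, 4 with DESeq2 and 5 at an adjusted p under 0.01, and the 3 SR members among them 1, 1 and 1, while they were 5 with scaling by library size alone, where 9 members rose and 13 fell. The 6 hnRNP members that fell were 3 without the filter and 3 with DESeq2. Against a fold of 1.2 edgeR called 2 members higher (2 SR and 0 hnRNP) and 0 lower (0 SR and 0 hnRNP), with 2 higher and 0 lower members at an unadjusted p under 0.05. With 1 library left out, which assumes that the lone sample varies like the other group, members that rose numbered 9 to 13 and members that fell 4 to 9. SR members that fell numbered 1 to 2 and hnRNP members that fell 3 to 8. Log2 fold changes then ran from -3.58 to 4.38 for HNRNPA1P10, from -0.20 to 0.084 for HNRNPUL2, from -0.64 to 0.47 for HNRNPUL2-BSCL2, from -1.51 to 0.027 for BSCL2 and from -0.43 to 0.12 for SRSF12. By library size alone the median of all genes moved to -0.044, and the uncalled HNRNPH1, SRSF10 and TRA2B turned to -0.027, -0.011 and -0.0040. The cause was not tested.

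Same-numbered libraries share only a number in the labels. The deviations of same-numbered libraries had a correlation of 0.19 across genes, with 2 pairs. With the replicate block 7211 genes were called, 11 members higher and 7 lower. HNRNPA1P10 gained a call (log2 fold change 0.22, edgeR adjusted p = 1.03e-04), and HNRNPA2B1 (0.0655) and SRSF8 (0.0639) lost theirs.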

Other observations

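Reads were divided by replicate number, as in HNRNPA1P10, in a small number of other genes. Across the 467 tested genes with such values, the log2 difference of replicate 1 and replicate 2 in the controls had a Pearson correlation of 0.46 with that in the knockdown, and across the 13448 other genes it was -0.0037. These are descriptions over genes that share libraries and, in part, reads. In 28 genes, replicate 1 and replicate 2 differed over 2-fold in the same direction in both groups, and 23 of these had fractional values. In 4 genes they did so in opposite directions. Several of the 28 are named as read-through transcripts, as HNRNPUL2-BSCL2 is. CORO7-PAM16 counted 0 and 119 in control and 0 and 117 in knockdown libraries, and SLMO2-ATP5E had 15 and 528 and then 65 and 559. Both were picked with their values in view. BSCL2, whose sequence the HNRNPUL2-BSCL2 read-through also holds, counted 352 and 158 in control and 204 and 81 in knockdown libraries, the reverse of the order in the read-through. In the main fit BSCL2 was not called (log2 fold change -0.69, SE 0.34). With the replicate block BSCL2 was called lower (log2 fold change -0.71, SE 0.12, edgeR adjusted p = 8.82e-09).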
